A study of Saccharomyces cerevisiae with 4 samples.

Results

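The 7 genes described here encode the chitin synthases of budding yeast and the proteins that activate and transport them. The rule that selects them is a list of ORF names and uses no measured value. They are the synthase genes CHS1 (YNL192W), CHS2 (YBR038W) and CHS3 (YBR023C), the activator gene SKT5 (YBL061C), and the trafficking genes CHS5 (YLR330W), CHS6 (YJL099W) and CHS7 (YHR142W). All 7 were listed in every library, among 6348 ORFs listed in at least 1 library. Poly(A) RNA came from mid-log cultures in synthetic complete medium with 2% glucose at 30°C: 2 cultures of a MATa haploid strain and 2 of an isogenic MATaaaa tetraploid strain. The cultures were grown and profiled as pairs A and B, each with 1 haploid and 1 tetraploid. Both strains are in the Σ1278b background, which can form filaments, and both carry ura3-52, leu2::hisG and his3::hisG. Each ploidy is represented by a single strain, so an effect of ploidy and any other difference between these strains cannot be told apart.

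Chitin is a polymer of N-acetylglucosamine and a minor but essential part of the yeast cell wall. It forms a ring at the bud neck, the primary septum that closes the neck at division, and a thin component of the lateral wall. Each of these depends on a synthase in the plasma membrane, and the synthases are controlled largely through their transport and activation, as well as through transcription. The comparison asked whether the relative abundance of these transcripts differed between haploid cells and the larger tetraploid cells.

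The libraries held between 3612527 and 4133193 reads on ORFs, and the 7 genes together took between 2007 and 2519 of these reads. Levels are given as CPM, a gene's reads scaled to a common library size with edgeR's TMM factors. For the comparison of ploidies, edgeR's quasi-likelihood model included a term for the pair and was fitted to the 5680 genes that reached 15 reads in each pair. A log2 fold change above 0 means a higher level in tetraploids. A gene was called at a Benjamini-Hochberg adjusted p under 0.05. As a check of the labelled mating type, the 3 genes specific to a cells (STE2, BAR1 and MFA1) had between 34 and 2085 reads. The 4 genes specific to alpha cells (STE3, SAG1, MFALPHA1 and MFALPHA2) had between 0 and 61. LEU2 was not listed in any library and HIS3 had between 16 and 43 reads, while URA3, although the strains carry ura3-52, had between 25911 and 35557. A count measures only a share of its library, so a lower level in tetraploids need not mean fewer transcripts in a cell. Since RNA came from whole cultures, fewer cells transcribing a gene and a lower level in every cell cannot be told apart.

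None of the 7 genes was called. Across all tested genes, edgeR called 5.35% lower and 2.52% higher in tetraploids, 7.87% in all. An unadjusted p under 0.05 was reached by 2 of the 7, CHS3 and CHS7, against 24.8% of all tested genes. With the block, DESeq2 (7.24% of the genes to which it gave an adjusted p, CHS6 not among them) and limma-voom (9.21% of tested genes) also called 0 of the 7. So did edgeR without the block, which called 0.387% of tested genes. The log2 fold changes ran from -0.44 to 0.21 with a median of -0.05, against 0.01 for all tested genes. None of the 7 reached a 2-fold difference, against 1.97% of tested genes, and every 95% interval of the difference (unadjusted, from the same fit) lay between -0.75 and 0.53. In CPM, the tetraploid and haploid libraries did not overlap for 2 of the 7 genes, against 42.4% of all tested genes.

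**Figure D1:**
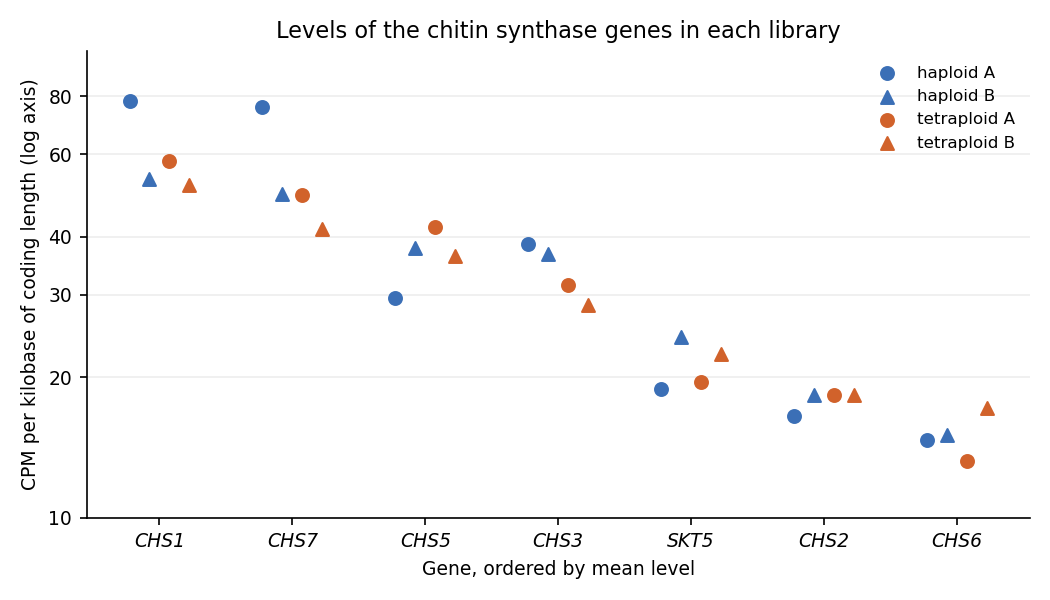
Level of each of the 7 genes in each library, as CPM per kilobase of coding length on a log axis. Blue marks haploid and orange tetraploid libraries, with circles for pair A and triangles for pair B; CHS1 was highest and CHS6 lowest in all 4 libraries, and for CHS3 and CHS7 both tetraploid libraries lay below both haploid libraries.

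Levels of different genes were compared as CPM per kilobase, with coding lengths from R64, the reference assembly of another strain, S288C. In all 4 libraries CHS1 was highest, CHS7 next, and SKT5, CHS2 and CHS6 the lowest in that order. CHS5 stood above CHS3 in every library but haploid A. The mean over the 4 libraries was 60.3 CPM per kilobase for CHS1, 53.9 for CHS7, 36.4 for CHS5, 33.8 for CHS3, 21.3 for SKT5 and 17.9 for CHS2, and CHS6 lay between 13.2 and 17.2. Of the neighbours in this order, CHS3 and SKT5 did not overlap in any library, and neither did SKT5 and CHS2, although the lowest SKT5 value (18.9) was close to the highest CHS2 value (18.4). All other neighbours overlapped across the libraries. Among all tested genes with a length, CHS1 lay at percentile 76.3 and CHS6 at percentile 34.3.

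CHS3 encodes the synthase that makes most of the chitin in the cell, including the ring at the bud neck and the chitin of the lateral wall. It had 423 reads in haploid A, 453 in haploid B, 468 in tetraploid A and 477 in tetraploid B. As CPM, this was 135 and 129 CPM in haploids and 110 and 99.7 CPM in tetraploids. Both tetraploid values lay below both haploid values, which held for 20.5% of all tested genes. The means were 132 ± 4.40 CPM (SD, n = 2) and 105 ± 7.29 CPM (SD, n = 2). The log2 fold change was -0.33 (standard error 0.12, 95% interval -0.59 to -0.07), with an adjusted p of 0.110 in edgeR's quasi-likelihood test. The 2 pairs gave -0.29 (A) and -0.37 (B). CHS3 was the only one of the 7 whose haploid libraries differed by less (0.07 on the log2 scale) than the ploidies did. How many of all tested genes did so was not counted, and the haploid difference also includes that between pairs.

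CHS1 encodes a synthase that repairs the wall of the daughter cell after separation, and its transcription is known to rise in cells treated with mating pheromone. Its reads were 833 in haploid A, 635 in haploid B, 841 in tetraploid A and 840 in tetraploid B. This was 265 and 180 CPM in haploids and 198 and 176 CPM in tetraploids. Haploid A stood above the other 3 libraries, and haploid B lay between the tetraploid libraries. The log2 fold change was -0.23 (standard error 0.13, 95% interval -0.51 to 0.04, edgeR adjusted p = 0.277). The 2 pairs gave -0.42 (A) and -0.04 (B), and the haploid libraries differed by 0.56.

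CHS2 encodes the synthase of the primary septum, and its transcript is known to peak shortly before mitosis. It had 150 reads in haploid A, 187 in haploid B, 225 in tetraploid A and 254 in tetraploid B. After scaling, 3 libraries were almost equal at 53.1 CPM (haploid B), 52.9 CPM (tetraploid A) and 53.1 CPM (tetraploid B), and haploid A was lower at 47.8 CPM. The log2 fold change was 0.07 (standard error 0.14, 95% interval -0.23 to 0.37, edgeR adjusted p = 0.797).

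**Figure D2:**
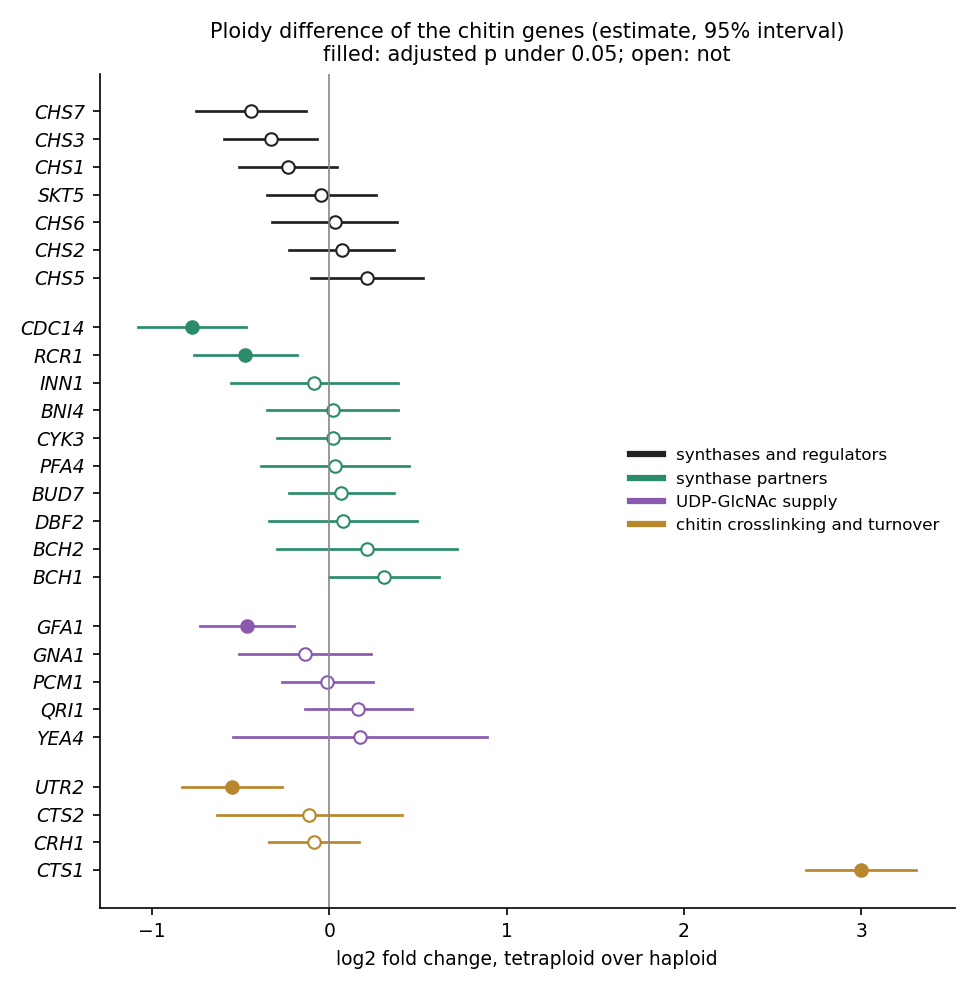
Log2 fold change, tetraploid over haploid, of the 7 genes and of the other tested genes of chitin synthesis and turnover; points are estimates of edgeR's fit, lines their 95% intervals, and filled points had an adjusted p under 0.05. None of the 7 genes at the top is filled, and CTS1 at the bottom lies farthest from 0, at 3.0.

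SKT5, also called CHS4, encodes the protein that activates Chs3 and, through Bni4 and the septins, holds it at the bud neck. It had 124 reads in haploid A, 180 in haploid B, 174 in tetraploid A and 224 in tetraploid B. In CPM the values were 39.5 and 51.1 in haploids and 40.9 and 46.8 in tetraploids. Both tetraploid values lay within the haploid range. Its log2 fold change was -0.05 (standard error 0.14, 95% interval -0.35 to 0.26, edgeR adjusted p = 0.875).

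CHS5, CHS6 and CHS7 serve the transport of Chs3. Chs7 assists its exit from the endoplasmic reticulum. Chs5 is the scaffold of exomer, the coat that carries Chs3 from the trans-Golgi to the plasma membrane, and Chs6 is a subunit of exomer that binds the cargo.

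CHS7 had 226 reads in haploid A, 165 in haploid B, 199 in tetraploid A and 189 in tetraploid B. This was 72.0 and 46.8 CPM in haploids and 46.8 and 39.5 CPM in tetraploids. The ploidies did not overlap, but the gap between haploid B (46.83 CPM) and tetraploid A (46.76 CPM) was small, and haploid A stood well above the other 3. The means were 59.4 ± 17.8 CPM (SD, n = 2) and 43.1 ± 5.14 CPM (SD, n = 2). The log2 fold change, the largest of the 7 in size, was -0.44 (standard error 0.15, 95% interval -0.75 to -0.13), with an edgeR adjusted p of 0.0749. The 2 pairs gave -0.62 (A) and -0.24 (B), and the 2 haploid libraries differed by as much (0.62) as the ploidies in pair A. With DESeq2's size factors in place of TMM factors the adjusted p from edgeR was 0.0281, a setting that called 8.63% of tested genes lower. Over the alternatives its adjusted p reached 0.599, and a fold change of this size or larger was found for 19.6% of all tested genes.

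CHS5 had 187 reads in haploid A, 268 in haploid B, 359 in tetraploid A and 351 in tetraploid B. In CPM the values were 59.6 and 76.1 in haploids and 84.4 and 73.3 in tetraploids. Haploid A was the lowest and tetraploid A the highest, with the libraries of pair B in between. The log2 fold change of 0.21 (standard error 0.15, 95% interval -0.10 to 0.53, edgeR adjusted p = 0.394) came from pair A, where it was 0.50, while it was -0.05 in pair B. Scaled by total counts instead, the value was 0.50 (adjusted p = 0.0481), under a scaling that called 20.6% of tested genes higher.

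CHS6 had the fewest reads of the 7, with 103 in haploid A, 119 in haploid B, 126 in tetraploid A and 184 in tetraploid B. In CPM this was 32.8 and 33.8 in haploids and 29.6 and 38.4 in tetraploids. The tetraploid libraries lay on either side of the haploid libraries. The log2 fold change was 0.03 (standard error 0.16, 95% interval -0.32 to 0.38, edgeR adjusted p = 0.932). The 103 reads of haploid A have an exact Poisson 95% interval of 84.1 to 125, which covers counting error only, and the 833 reads of CHS1 in the same library one of 777 to 892.

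**Figure D3:**
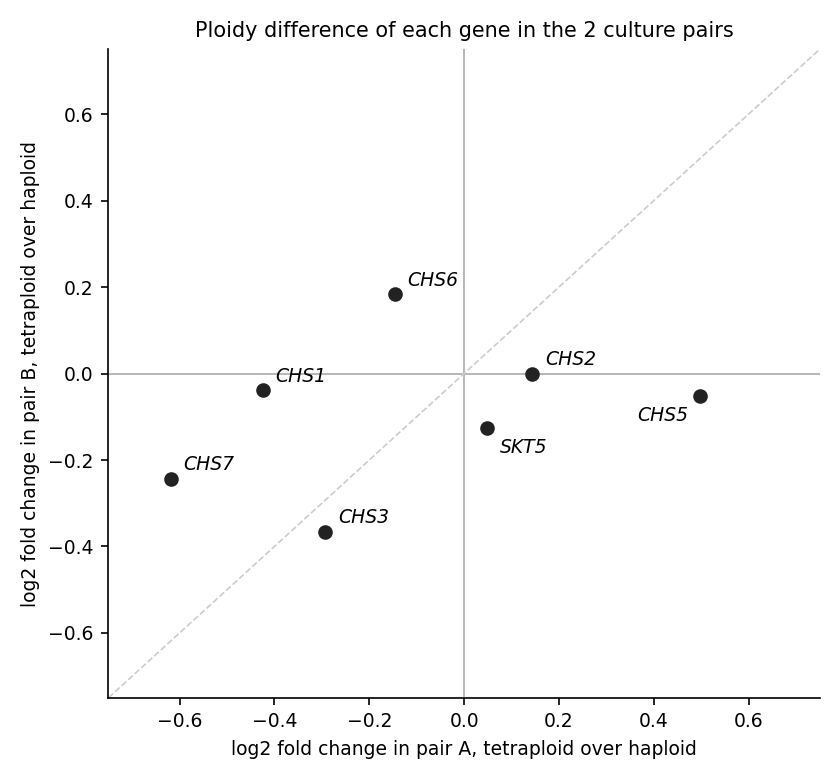
Log2 fold change of each of the 7 genes in pair A (horizontal) and in pair B (vertical), with the dashed line marking equal values. CHS3, CHS7 and CHS1 were below 0 in both pairs, CHS3 nearest to equal values (-0.29 and -0.37), and the other 4 genes had opposite signs in the 2 pairs.

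The plot of pair A against pair B shows how far the cultures differed. The sign was the same in both pairs for 3 of the 7 genes (CHS1, CHS3 and CHS7), against 68.3% of all tested genes. For 6 of the 7, the 2 haploid libraries differed by more than the estimated difference between ploidies. The haploid difference includes that between pairs, which the fit takes out of the ploidy estimate, so it does not measure the error of that estimate. The share of all tested genes for which this held was not counted. Summed over the 3 synthase genes, the level was 448 CPM in haploid A, 362 in haploid B, 360 in tetraploid A and 328 in tetraploid B. The sum over the 4 activator and trafficking genes was nearly level, at 204, 208, 202 and 198 CPM in the same order. The 7 genes lie on 5 chromosomes, whose tested genes had median log2 fold changes between -0.04 and 0.02.

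A ratio of 2 genes within a library does not depend on how libraries are scaled. The ratio of CHS2 to CHS3 reads was 0.355 and 0.413 in the haploid libraries of pairs A and B and 0.481 and 0.532 in the tetraploid ones. Both tetraploid ratios were above both haploid ratios, with a mean log2 difference of 0.40 (0.44 for pair A, 0.37 for pair B). The exact permutation test over libraries (two-sided) gave p = 0.33, the smallest value that 2 against 2 can give. This test does not use the pairing. For the other ratios the ploidies overlapped. SKT5 to CHS3 was higher in the tetraploid of each pair, with log2 differences of 0.34 (A) and 0.24 (B) and a mean of 0.29. CHS1 to CHS2 was lower in the tetraploid of each pair, at -0.57 (A) and -0.04 (B) with a mean of -0.30, and CHS1 to CHS3 had opposite signs, at -0.13 (A) and 0.33 (B) with a mean of 0.10. The ratio of CHS1 to CHS2 was 5.55 in haploid A and between 3.31 and 3.74 in the other 3 libraries, so haploid A alone stood apart. The exact two-sided p was 0.667 for SKT5 to CHS3, 0.667 for CHS1 to CHS2 and 1 for CHS1 to CHS3. All 4 ratios share genes, and with 2 against 2 libraries none could reach a p under 0.05 in this test. The p-values of the ratios were not adjusted.

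**Figure D4:**
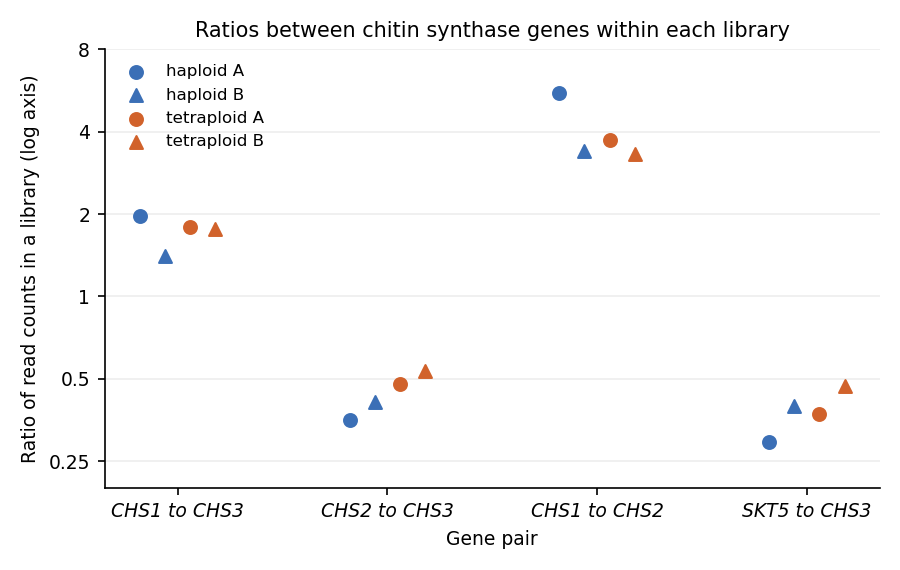
Ratio of read counts of 2 genes within each library, on a log axis, for 4 gene pairs; colors and shapes mark ploidy and pair as in the plot of levels. The ratio of CHS2 to CHS3 was 0.355 and 0.413 in haploids and 0.481 and 0.532 in tetraploids, and the other ratios overlapped between ploidies.

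By the distance between patterns over the 4 libraries, the genes most like CHS1 were FEN2, CDS1 and YJR124C. Those most like CHS2 were YOR218C, VHT1 and SEC10, and those most like CHS3 were PHO90, SRB2 and ATE1. The distance was the Euclidean distance of log2 CPM centred on each gene's mean. None of these 9 genes was called, which follows largely from choosing them for likeness to genes that were not called. Such patterns were common: 218 tested genes lay within 0.2 of CHS1, 674 of CHS2 and 335 of CHS3.

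Among other partners and regulators of the synthases, 10 of 11 genes were tested, and 2 were called lower and 0 higher (5.35% and 2.52% of all tested genes). Their median log2 fold change was 0.03, against 0.01 for all tested genes. CDC14, the phosphatase that releases Chs2 from the endoplasmic reticulum at mitotic exit, had 181 and 240 reads in haploids and 157 and 176 in tetraploids A and B. Its log2 fold change was -0.77 (standard error 0.14, edgeR adjusted p = 0.00359), which without the block had an adjusted p of 0.286. CDC14 lies on chromosome 6, whose 111 tested genes had a median of -0.40 in the same fit, and the part of this in the CDC14 value was not tested. RCR1, a membrane protein of the endoplasmic reticulum whose excess lowers chitin deposition, had 212 and 214 reads in haploids and 208 in both tetraploids. Its log2 fold change was -0.47 (standard error 0.14, edgeR adjusted p = 0.0447 with the block and 0.509 without it). The other 8 tested genes, among them the remaining exomer subunits, ranged from -0.08 to 0.31 and none was called.

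For the 5 genes that make and move the substrate UDP-N-acetylglucosamine the median was -0.01, against 0.01 for all tested genes. Of the 5, 1 was called, in the lower direction (5.35% of all tested genes). This was GFA1, which catalyses the first committed step of hexosamine synthesis. It had 410 and 424 reads in haploids A and B and 394 and 428 in tetraploids A and B, or 131, 120, 92.6 and 89.4 CPM. Its log2 fold change was -0.46 (standard error 0.12, edgeR adjusted p = 0.0339 with the block and 0.509 without it). R64 places a short gene, YKL104W-A, within GFA1, and since reads on both strands were counted, reads from it would be counted for GFA1. The other 4 genes ranged from -0.14 to 0.17.

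Of the 7 genes for chitin crosslinking and breakdown, 4 were tested, with a median of -0.10, against 0.01 for all tested genes. Of these 4, 1 was called higher and 1 lower (2.52% and 5.35% of all tested genes). The higher gene was CTS1, the chitinase that frees the daughter cell by digesting the septum. CTS1 had 109 and 93 reads in haploids A and B and 1303 and 906 in tetraploids A and B. Its log2 fold change was 3.0 (standard error 0.15, edgeR adjusted p = 7.00e-09 with the block and 0.0144 without it). The 2 pairs gave 3.12 (A) and 2.82 (B). CTS1 is also on the study's list of genes induced in tetraploids, drawn from these same libraries. By qPCR in cultures grown in another medium (YPD), the study also found CTS1 higher in the tetraploid. The lower gene was UTR2, also called CRH2, which links chitin to glucan, with 2011 and 1708 reads in haploids and 1595 and 1855 in tetraploids A and B. Its log2 fold change was -0.55 (standard error 0.13, edgeR adjusted p = 0.0186 with the block and 0.509 without it). Without either library of pair A it was -0.32. The other 2 tested genes lay between -0.11 and -0.09.

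Genes from 3 further lists were read beside the synthases because their transcription follows the same events. Those of the G2/M cluster, expressed at about the time of CHS2, had a median log2 fold change of 0.40 over 10 tested genes, 0.61 for pair A, 0.06 for pair B. Over all tested genes the median was 0.01. Of these 10, 8 were above 0 (2903 of all 5680 tested genes) and 1 was called higher (2.52% of all tested genes). The cyclin genes CLB2 (-0.28) and CLB1 (-0.08) were below 0, and neither was called. The summed level of the list was 260 and 280 CPM in haploids and 374 and 297 CPM in tetraploids. The called gene was CDC5, the polo kinase, at 0.56 (standard error 0.16, edgeR adjusted p = 0.0423 with the block, 0.509 without it), and its value was between 0.33 and 0.34 without a library of pair A. HST3 (0.72, adjusted p = 0.0800) and IQG1 (0.49, adjusted p = 0.0581) were not called by edgeR, and without a library of pair A they were at 0.43 and between 0.29 and 0.30. The part of this list in the CHS2 value of 0.07 was not tested.

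Genes induced by mating pheromone, as CHS1 is, had a median of -1.59 over 7 tested genes, against 0.01 for all tested genes. Of these 7, 5 were called lower and 0 higher (5.35% and 2.52% of all tested genes). FUS1, FUS3 and SST2 were also called without the block. The 3 genes specific to a cells were all called lower as well, with values from -2.43 to -1.94. The summed level of the pheromone-induced list was 427 and 439 CPM in haploids and 163 and 171 CPM in tetraploids. FUS1 was at -2.22, FUS3 at -2.04 and SST2 at -1.71 on the log2 scale, against -0.23 for CHS1. These 3 are the largest changes of the list. Its 7 tested genes ranged from -2.22 to 0.03, with 6 below 0 and 1 above. The CHS1 value lay higher than all 6 of those below 0 and lower than the 1 above. Chromosome 3, which carries FUS1, had a median of 0.26 over 153 tested genes. Chromosome 6, which carries STE2, had a median of -0.40 over 111 tested genes. The study's own list of genes repressed in tetraploids, drawn from these same libraries, includes FUS1, FUS3 and SST2. It also includes STE2, BAR1 and MFA1, so the direction of both lists here adds no evidence independent of it. By qPCR in cultures grown in another medium (YPD), the study also found FUS1, FUS3, SST2, STE2, BAR1 and MFA1 lower in the tetraploid. The part of the pheromone-induced list in the CHS1 value was not tested.

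Genes reporting on the cell wall integrity pathway, which responds to wall stress, had a median of 0.20 over 6 tested genes (0.09 for pair A, 0.36 for pair B). The median of all tested genes was 0.01. Of these 6, 5 were above 0 (2903 of all 5680 tested genes) and 1 was called higher (2.52% of all tested genes). The called gene was SLT2, the pathway's MAP kinase, at 0.53 (standard error 0.13, edgeR adjusted p = 0.0191 with the block and 0.509 without it). KDX1 was at 1.20 (standard error 0.38, edgeR adjusted p = 0.0650) on 7 to 38 reads, and FKS2, the stress-induced glucan synthase, at -0.31 (adjusted p = 0.147). Without a library of pair A, KDX1 was between 1.98 and 1.99 and FKS2 between -0.18 and -0.17, and without a library of pair B, KDX1 was at 0.60. Summed, the list had 467 and 282 CPM in haploids A and B and 453 and 352 CPM in tetraploids A and B, so libraries of 1 ploidy differed by more than the ploidies within a pair. The part of this list in the values of CHS3 and CHS7 was not tested.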

How the data were processed

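Per the labels and the methods of the study, poly(A) RNA was sequenced for 36 cycles on the Illumina Genome Analyzer 2 and the authors aligned reads with Bowtie to the genome of Σ1278b. The authors deposited raw read counts per ORF, 1 file per library, with a lowest listed count of 2; an ORF not listed was taken as 0. The methods describe unique mappings and counting on both strands, so reads of overlapping or antisense ORFs cannot be told apart. The genome version is not given in the sources used here. R64 names 5754 of the 6348 ORFs. It annotates no gene overlapping any of the 7, but the 594 ORFs without an entry could not be checked.

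Counts were analysed with edgeR 4.0.16 (TMM factors 0.84 to 1.19, quasi-likelihood test, pair as a block), DESeq2 1.42.0 and limma 3.58.1 under R 4.3.3. Tables and figures were made with pandas 2.3.3, numpy 2.4.6, scipy 1.17.1 and matplotlib 3.10.9 in Python 3.11.15. Fits by edgeR with and without the block, by DESeq2 and by limma-voom were also run on simulated counts. The simulation included a pair effect and a dispersion near that of the blocked fit. It therefore cannot decide between fits with and without the block. The block follows the study, which compares its cultures in pairs: deviations of same-pair libraries correlated at 0.53 across genes. A gene was tested if 1 or both libraries of each pair had 15 or more reads for it, and p-values were adjusted over all 5680 such genes. Log2 values per pair use a prior count of 2. The standard error is the log2 fold change divided by the square root of F.

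The members and gene lists were chosen with earlier results of these data known. Named were all 7 genes, every called gene and the largest change of the 3 chitin lists, and the 3 largest changes of each of the G2/M, pheromone and cell wall integrity lists. The G2/M genes below 0 were named as well. Alternatives tried were limma-voom, DESeq2, edgeR without the block, scaling by total counts or by DESeq2's size factors, no minimum count, at least 100 reads in all libraries, and each library left out. Planned searches of promoters and proteins were not run, for want of a matching genome. Values from the authors' comparisons were not used.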

Additional observations from a re-analysis of the deposited data

How the results depend on the processing

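Of 49 values of the 7 genes under 7 alternatives with a test, 44 kept their direction and, where an adjusted p was given, their side of the threshold. DESeq2 gave CHS6 no adjusted p, so that value was counted by its direction alone. Scaled by total counts, the median of all tested genes shifted to 0.30, and CHS1 (0.054) and SKT5 (0.24) turned above 0, although both stayed below that median. Under that scaling CHS5 (0.50, edgeR adjusted p = 0.0481) was called higher, so 1 of the 7 was called higher, and the median of the 7 was 0.24. With DESeq2's size factors in edgeR, CHS7 (-0.45, adjusted p = 0.0281) was called, so 1 of the 7 was called lower. With at least 100 reads in all libraries SKT5 was at 0.0063. Without the replicate block, edgeR called 18 genes lower and 4 higher over all tested genes, against 304 and 143 with the pairs as a block, and 0 of the 7. The counts were 133 and 23 with DESeq2, 115 and 1168 with total counts, 490 and 262 with DESeq2's size factors, 95 and 13 with no minimum count, and 123 and 52 with at least 100 reads in all libraries. Apart from the fewer genes tested under the last, the cause was not tested.

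With each library left out in turn, 1 complete pair remained and the blocked fit gave values without a test. They ranged from -0.43 to -0.03 for CHS1, -0.00018 to 0.15 for CHS2, -0.37 to -0.29 for CHS3, -0.13 to 0.05 for SKT5, -0.05 to 0.50 for CHS5, -0.16 to 0.19 for CHS6 and -0.63 to -0.24 for CHS7. Standard errors of the 7 genes were 0.12 to 0.16 on the log2 scale. In the main fit CHS7 at -0.44 (standard error 0.15) and CHS3 at -0.33 (standard error 0.12) were not called. With 2 cultures per ploidy, differences well above the standard error could therefore go uncalled.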

Other observations

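Several genes whose known role is in the spore wall, where chitin is converted to chitosan, were listed at or near the lowest counts. SHC1, a relative of SKT5 that acts in sporulation, had 5 and 8 reads in haploids A and B and 2 and 10 in tetraploids A and B. CRR1, a relative of the crosslinking enzymes, had between 8 and 10 reads in the 4 libraries. The chitin deacetylase gene CDA1 had between 2 and 5 reads, and CDA2 was not listed in any library. None of these 4 genes reached the minimum for testing, so a difference between ploidies was not tested for them in the main fit.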
